A study of Mus musculus with 10 samples.

Results

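When colon organoids were taken out of Wnt3a-containing medium, 1034 genomic regions met a simple rule of gain. Each had a peak of accessible chromatin in at least 4 of the 5 libraries from differentiated organoids (d4 ENR) and in none of the 5 libraries from organoids kept in Wnt3a (WENR). The regions were chosen by these peak calls, so the calls themselves describe them and were not tested. They came from 85680 consensus regions, made by merging the peaks of the 10 libraries that shared at least 1 bp, of which 1.21% met the rule. The converse set, called in at least 4 of 5 WENR and in no d4 ENR library, held 7079 regions or 8.26%. Of the 1034 opened regions, 272 had a peak in all 5 d4 ENR libraries and 762 in 4 of them.

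The study asked how the aryl hydrocarbon receptor (AHR), a ligand-activated transcription factor, shapes chromatin as colonic epithelium leaves a regenerative state. Omni-ATAC-seq, in which a transposase tags open chromatin, was applied to 50000 sorted live cells per library. There were 2 libraries of WT and 3 of AHR KO organoids in WENR, and 3 of WT and 2 of AHR KO organoids in d4 ENR. AHR KO organoids came from Villin-Cre Ahr fl/fl mice and WT organoids from wild type littermates, all on a C57BL/6 background and with no age given in the sources used here. Villin drives Cre in intestinal epithelium, so the deletion is epithelial. All organoids were grown from colonic crypts and either kept in WENR or switched to ENR. The d4 ENR libraries were taken 4 days after the switch to ENR, which holds EGF, R-spondin1 and Noggin. WENR holds these and Wnt3a-conditioned medium, the p38 inhibitor SB202190, the ALK5 inhibitor A83-01 and nicotinamide, so the media differ in more than Wnt3a and those parts cannot be told apart. The labels leave out whether equal replicate numbers mark a common organoid line or mouse, so p-values measure the spread between these libraries.

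The lists rest on 30354729 to 36307860 fragments in d4 ENR and 41686181 to 49126792 in WENR, and held 33433 to 58359 and 61485 to 65308 peaks. Promoters of all 12 colon epithelium markers had a peak in each library, and of 8 leukocyte markers only *Cd68* had one, in all libraries but WT d4 ENR replicate 1. Of 8 fibroblast and endothelium markers, 2 promoters (*Col1a1* and *Pdgfra*) had a peak in each d4 ENR library and 4 in each WENR library. Of 6 neuron and glia markers, 0 to 3 had a promoter peak. Over *Ahr* with 5 kb on each side, peaks covered 3250 to 7017 bp in AHR KO and 1216 to 2544 bp in WT libraries, with a peak at the promoter in each library. The part of these values in the results was not tested. Where no peak is listed, the signal was under the threshold of the caller, and the site need not have been closed. A stronger peak in bulk organoids can come from more cells with an open site or from a site that is more open per cell, and these cannot be told apart.

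By way of background, the colonic crypt is renewed by stem cells at its base that depend on Wnt ligands. As their daughters leave the Wnt source they become absorptive colonocytes or secretory goblet, enteroendocrine and tuft cells. Enhancers of the differentiated epithelium are known to be bound by HNF4, a nuclear receptor, together with CDX2 and GATA factors. AP-1 and TEAD factors are known for their sites in enhancers of proliferating and regenerating epithelium.

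The sequences that follow carry the motif with the highest ratio of its share in the opened regions to that in other regions of like GC content, the HNF4 strings CAAAGTCCA or CAAAGTTCA. They are the central 300 bp of the 6 named regions that hold one. The 3 named for *Prdx6*, *Smim15* and *Gdpd5* are among the 12 strongest regions, and the 3 named for *Tcf7l2*, *Sp5* and *Mki67* lie nearest to genes of the lists described further on. Letters are from the plus strand of the RefSeq GRCm38.p6 assembly, and capitals mark the HNF4 match on either strand. None of these windows overlaps an annotated exon.
Prdx6 region, chr1:161301587-161301886: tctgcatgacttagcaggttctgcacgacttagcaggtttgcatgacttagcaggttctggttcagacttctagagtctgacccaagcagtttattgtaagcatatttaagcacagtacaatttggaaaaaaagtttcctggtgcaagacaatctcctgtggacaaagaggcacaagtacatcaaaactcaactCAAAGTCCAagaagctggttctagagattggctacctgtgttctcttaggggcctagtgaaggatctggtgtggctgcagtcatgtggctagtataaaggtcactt
Smim15 region, chr13:107721004-107721303: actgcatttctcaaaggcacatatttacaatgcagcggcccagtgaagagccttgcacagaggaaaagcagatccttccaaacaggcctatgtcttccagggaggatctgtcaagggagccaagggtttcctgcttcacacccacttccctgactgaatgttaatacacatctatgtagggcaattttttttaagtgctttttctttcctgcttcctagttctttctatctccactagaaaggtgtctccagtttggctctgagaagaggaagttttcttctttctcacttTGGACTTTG
Gdpd5 region, chr7:99421055-99421354: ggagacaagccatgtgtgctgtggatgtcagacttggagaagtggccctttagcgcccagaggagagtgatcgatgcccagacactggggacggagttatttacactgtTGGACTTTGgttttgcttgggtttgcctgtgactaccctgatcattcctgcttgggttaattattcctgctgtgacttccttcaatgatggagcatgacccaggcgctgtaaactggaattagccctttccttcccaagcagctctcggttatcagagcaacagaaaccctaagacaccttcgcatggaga
Tcf7l2 region, chr19:55860165-55860464: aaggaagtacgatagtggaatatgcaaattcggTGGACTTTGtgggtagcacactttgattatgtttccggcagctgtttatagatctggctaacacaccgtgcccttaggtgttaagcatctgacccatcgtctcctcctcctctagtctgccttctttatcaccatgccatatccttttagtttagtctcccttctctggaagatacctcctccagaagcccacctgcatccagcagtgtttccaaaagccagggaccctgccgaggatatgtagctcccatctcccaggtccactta
Sp5 region, chr2:70412622-70412921: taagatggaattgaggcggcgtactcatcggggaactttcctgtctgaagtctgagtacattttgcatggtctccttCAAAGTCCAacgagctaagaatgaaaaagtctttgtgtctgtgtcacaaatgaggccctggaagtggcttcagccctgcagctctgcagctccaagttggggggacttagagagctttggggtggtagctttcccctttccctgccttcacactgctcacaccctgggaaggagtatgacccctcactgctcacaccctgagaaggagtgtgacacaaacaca
Mki67 region, chr7:135723849-135724148: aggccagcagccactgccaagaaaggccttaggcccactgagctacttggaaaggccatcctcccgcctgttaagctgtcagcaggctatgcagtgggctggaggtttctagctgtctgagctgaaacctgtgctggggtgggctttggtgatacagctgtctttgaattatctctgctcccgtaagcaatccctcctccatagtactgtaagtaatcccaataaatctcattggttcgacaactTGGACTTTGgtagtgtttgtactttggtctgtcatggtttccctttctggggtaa
All 6 windows held CAAAGTCCA, on the plus strand in the *Prdx6* and *Sp5* windows and on the minus strand in the other 4. Over all 1034 regions, 42 held CAAAGTCCA and 40 held CAAAGTTCA, so both forms occurred.

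A second pair of sequences shows the range among the strongest regions. The first is the whole region nearest to *Myl12b*, at the top of the ranking, which held no HNF4 match. Its central 31 bases occur 6 times on the chromosomes searched, and copies elsewhere were not counted. A peak as short as this region of 230 bp could not be listed in WENR, where the shortest listed peak was 235 bp. The second is the central 300 bp of the region nearest to *Cyp26b1*, and capitals there mark in order a FOX match, a GATA match on the minus strand and a CDX2 match, whose strings are given with the motif shares.
Myl12b region, chr17:70963666-70963895: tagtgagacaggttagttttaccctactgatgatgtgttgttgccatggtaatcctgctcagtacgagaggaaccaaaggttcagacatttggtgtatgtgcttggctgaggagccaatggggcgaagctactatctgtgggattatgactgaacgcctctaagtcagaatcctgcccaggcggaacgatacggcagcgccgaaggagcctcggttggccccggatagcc
Cyp26b1 region, chr6:84640730-84641029: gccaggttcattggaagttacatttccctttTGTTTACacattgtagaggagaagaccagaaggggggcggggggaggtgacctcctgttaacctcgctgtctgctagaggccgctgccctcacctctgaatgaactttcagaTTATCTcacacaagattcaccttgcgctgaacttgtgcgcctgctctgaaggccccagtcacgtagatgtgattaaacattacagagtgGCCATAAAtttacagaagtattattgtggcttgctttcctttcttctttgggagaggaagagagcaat

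The opened regions were mostly distal. By their midpoint 47.0% were intergenic (95% Wilson interval 44.0 to 50.1%), 43.6% intronic, 5.90% in promoters (4.62 to 7.51%) and 3.48% in exons. Of all other regions, 32.6% were intergenic, 44.8% intronic and 15.3% in promoters. The converse set had 7.6% in promoters and 34.6% intergenic. Regions called in a single d4 ENR library and nowhere else had 5.33% in promoters and 40.2% intergenic. A low promoter share was thus not particular to the opened regions, whereas their intergenic share was the highest of these sets. The median distance from the midpoint to the nearest protein-coding start was 22680 bp, against 11826 bp in all other regions and 16289 bp in the converse set. Those called in all 10 libraries lay closest, at 4889 bp, and 31.3% of them were in promoters. Such intervals cover counting error only, since neighbouring regions are not independent of each other.

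They were also narrower than all other regions and without strong CpG content. The median width was 636.5 bp, against 878 bp in all other regions and 1393 bp in those called in all 10 libraries. It was 714 bp in the converse set and 271 bp in regions called in 1 d4 ENR library only. The CpG ratio, observed over expected from the base composition, had a median of 0.150 in the central 300 bp, below the 0.227 of all other regions and the 0.201 of the converse set. In regions called in 1 d4 ENR library only it was 0.1645, near that of the opened regions. GC content was 46.0%, against 47.7% in all other regions and 45.7% in the converse set. A peak in some WENR library lay within 2 kb of 17.1% of the opened regions and within 10 kb of 60.5%, at a median of 6865 bp. Regions called in 1 d4 ENR library only were alike, with 64.8% within 10 kb and a median of 5747 bp. Where a region outside promoters was within 100 kb of a protein-coding start, the promoter of that gene had a peak in all 5 WENR libraries in 75.5% of cases (72.4 to 78.3%), compared with 83.2% for all other regions and 82.5% for the converse set.

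Peaks in the opened regions were weaker than the common ones. MACS fold enrichment, the pileup of fragments relative to what the caller took as background around the site, had a median of 2.78 in WT replicate 1, 3.45 in replicate 2 and 3.58 in replicate 3. In AHR KO it was 3.12 in replicate 1 and 3.49 in replicate 2. Over regions called in all 10 libraries the same medians were 3.53, 4.99, 5.15, 4.59 and 5.2 in this order. Ranked within each list by the caller's −log10 p, with 100 for the most significant peak, the opened regions had median percentiles from 23.1 to 36.1. WT replicate 1 was the lowest on every one of these measures.

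**Figure D1:**
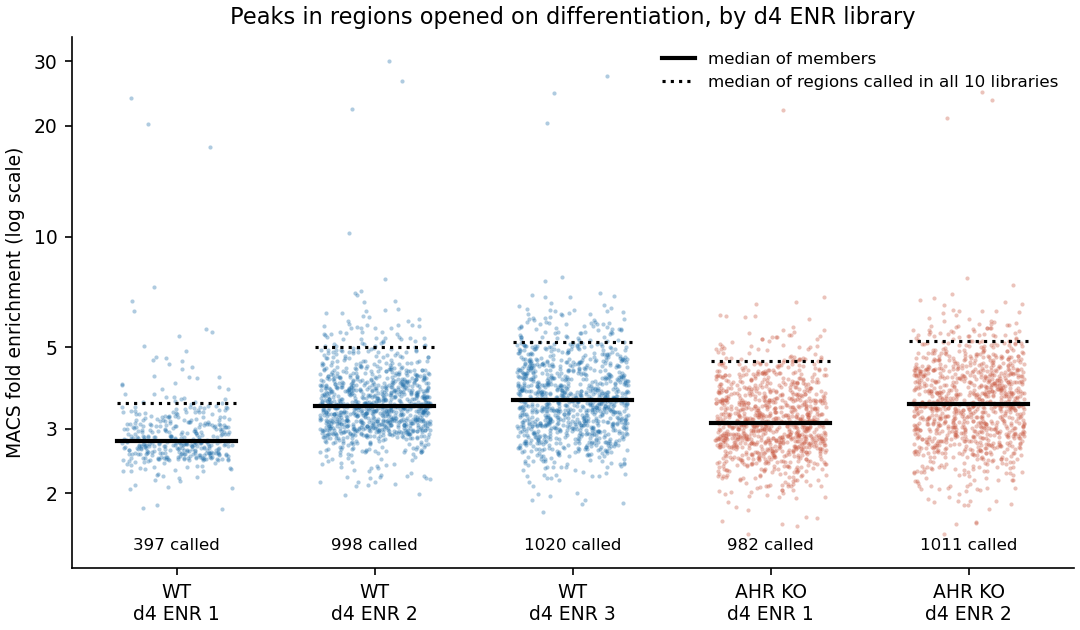
Fold enrichment by MACS (log axis) of each peak in an opened region, by d4 ENR library, with WT in blue and AHR KO in red. Solid lines are medians over the regions called and dotted lines medians over regions called in all 10 libraries. Medians of the opened regions lie between 2.78 and 3.58, below the dotted lines in each library, and the few points above 15 are 3 regions of repeated sequence.

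WT d4 ENR replicate 1 called 38.4% of the opened regions, and the other 4 d4 ENR libraries called 95 to 98.6%. The rule of at least 4 calls keeps the latter shares high. Of all 85680 regions, WT d4 ENR replicate 1 called 37.8% and the other d4 ENR libraries 52.5 to 66.0%. WT d4 ENR replicate 1 was the library without a peak in 637 of the 762 regions called in 4 libraries, or 83.6%. Among the other 9218 regions called in exactly 4 d4 ENR libraries it was the missing one in 90.0%. That library had 35965755 fragments, near those of the other d4 ENR libraries, and the shortest list of 33433 peaks. Without it, 2083 regions met the rule with at least 3 of the 4 libraries left.

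Around the threshold, values changed gradually. Regions called in 4 d4 ENR and no WENR library had a median fold of 3.40 and a median width of 591.5 bp. Just outside, the 1170 regions called in 3 d4 ENR libraries had a median fold of 3.17 and width of 490.5 bp. On the other side, the 276 regions called in 4 d4 ENR and 1 WENR library had 3.62 and 633.5 bp. These values are given as a description, since the calls chose the regions.

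Regions that one genotype chose had more peaks in the d4 ENR than in the WENR libraries of the other genotype. Those chosen on WT libraries alone, with a peak in at least 2 of 3 d4 ENR and in no WENR library, numbered 2586. Of these, AHR KO replicate 1 called 54.8% and replicate 2 75.6% in d4 ENR, against 12.7%, 8.35% and 8.51% in the 3 WENR libraries. The media did not overlap. The difference was 55.4 percentage points (65.2 ± 14.8% (SD, n = 2) against 9.85 ± 2.46% (SD, n = 3), exact permutation test, 2-sided p = 0.2, the smallest that 10 arrangements allow). With any one of the WT d4 ENR libraries left out, 1 of the others had to call and the difference was 29.1 to 30.6 points. Of all 85680 regions, AHR KO replicates 1 and 2 called 56.4% and 66.0% in d4 ENR, and the AHR KO WENR libraries 73.0 to 75.7%. The chosen regions thus stood apart from regions in general by few WENR calls.

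Chosen on AHR KO libraries alone, with a peak in both d4 ENR and in no WENR library, there were 2471 regions. WT d4 ENR libraries called 19%, 54.6% and 73.4% of them, and WT WENR libraries called 14.5% and 12.8%. Here replicate 1 of WT d4 ENR stood just above the WENR libraries and the other replicates far above. The difference was 35.4 points (49 ± 27.6% (SD, n = 3) against 13.6 ± 1.2% (SD, n = 2), exact permutation test, 2-sided p = 0.2, again the smallest possible). Without WT d4 ENR replicate 1 it was 50.4 points and without replicate 3 it was 23.2. Of all regions, WT d4 ENR replicates 1, 2 and 3 called 37.8%, 52.5% and 60.8%, and the WT WENR libraries 70.9% and 73.1%.

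**Figure D2:**
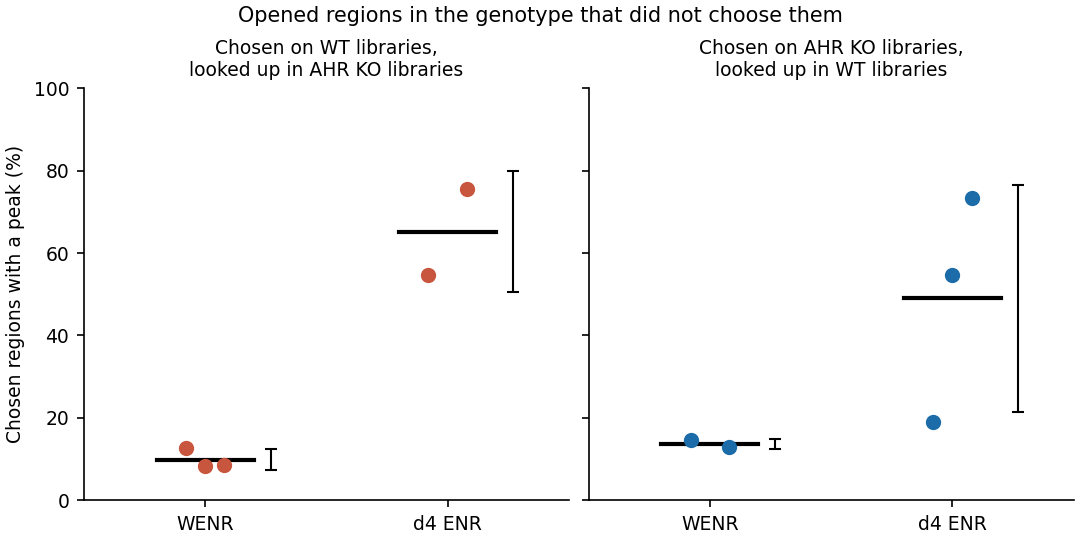
Percent of regions chosen as opened on one genotype that had a peak in each library of the other, by medium. Points are libraries, bars means and brackets SD: d4 ENR libraries lie at 19 to 75.6% and WENR libraries at 8.35 to 14.5%.

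The genotypes overlapped in the strength of the 272 regions called in all 5 d4 ENR libraries. Their median within-list percentile was 35.2 ± 4.08 (SD, n = 2) in AHR KO and 33.9 ± 7.31 (SD, n = 3) in WT, a difference of 1.34 (exact permutation test, 2-sided p = 1). With 2 against 3 libraries the test cannot go below 0.2, so no difference of any size could have been called. The median fold was 3.48 ± 0.347 in AHR KO and 3.44 ± 0.541 in WT (p = 1 by the same exact test). Divided by the median over regions called in all 10 libraries, it was 0.710 in AHR KO and 0.760 in WT, and there the libraries did not overlap (exact permutation p = 0.2). The sign of the difference thus turned with the scale.

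Peaks in these 272 regions were wider in the AHR KO libraries. They covered a median of 566 and 584.5 bp in AHR KO, and 379.5, 426 and 535.5 bp in WT. The libraries did not overlap, and the means differed by 128 bp (575 ± 13.1 bp (SD, n = 2) against 447 ± 80.1 bp (SD, n = 3), exact permutation test, 2-sided p = 0.2, the smallest possible). AHR KO libraries also had the longer mean fragments, 221 and 202 bp against 200, 156 and 172 bp in WT, and the part of this in the width was not tested.

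HNF4 had, of the 16 motifs, the highest ratio of its share in the opened regions to its share in all others. Within the central 300 bp, 82 of 1034 regions held an HNF4 string, or 7.93% (95% Wilson interval 6.44 to 9.74%). All other regions held one in 2.07%, in 2.38% when weighted to the GC content of the opened regions, and the converse set in 1.12% (0.896 to 1.39%). The share was 9.06% in the regions called in 4 libraries and 4.78% (2.81 to 8%) in the 272 called in all 5. Regions called in a single d4 ENR library and nowhere else had 3.21% (2.79 to 3.68%). Strings were searched on both strands, and such a match is a description of the letters, not of binding.

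E-box and GATA strings were the others with an interval above the GC-weighted share. CAGCTG, an E-box of the kind bound by bHLH factors, was in 21.3% of the opened regions (18.9 to 23.9%) and in 15.9% of all others after weighting. AGATAA, bound by GATA factors, was in 19.5% (17.2 to 22.1%) against 16.7%. For CDX2, a homeobox factor that sets intestinal identity, the strings GTAATAAA, GTCATAAA, GCAATAAA and GCCATAAA were in 10.6% (8.90 to 12.7%) against 9.03%, which its interval holds. Taken over whole regions, CDX2, GATA and E-box strings were about as common in the opened regions as in all others, at 19.4 and 18.9%, 38.0 and 37.4%, and 38.4 and 41.4%.

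AP-1 strings, by contrast, were scarce. TGACTCA or TGAGTCA, the site of FOS and JUN factors, was in 7.16% of the opened regions (5.74 to 8.89%), in 17.2% of all others after GC weighting and in 25.8% of the converse set. TEAD strings (ACATTCC or GCATTCC), the partner sites of YAP, were in 8.22% (6.70 to 10.1%), against 10.9% and 13.1%. The RUNX string TGTGGTT was in 5.90% (4.62 to 7.51%), against 7.83% and 8.29%. The low TEAD and RUNX shares were not particular to the opened regions. Regions called in all 10 libraries had 8.11% and 5.50%, and those called in a single d4 ENR library 8.50% and 6.49%. The low AP-1 share was not particular to regions that several libraries called, since those called in a single d4 ENR library had 7% (6.39 to 7.67%). An ETS string (CCGGAAGT) was in 2 opened regions, or 0.193% (0.053 to 0.70%), against 0.541% and 0.254%. Its interval held the GC-weighted share, so ETS strings were not set apart.

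The remaining strings showed no such distance. HNF1 (GTTAATNAT), KLF (GGGNGTGGC), FOX (TGTTTAC), TCF/LEF (CTTTGATC or CTTTGATG), steroid receptor (ACANNNTGT), POU (ATGCAAAT) and CTCF (CCANNAGNG) had intervals that held the GC-weighted share of all other regions. So did AHR:ARNT (TNGCGTG), the site of the deleted receptor and its partner, at 2.81% (2.0 to 4.0%) against 2.92%. No overlap between motifs was removed, so 1 stretch of bases can count for more than 1 motif.

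**Figure D3:**
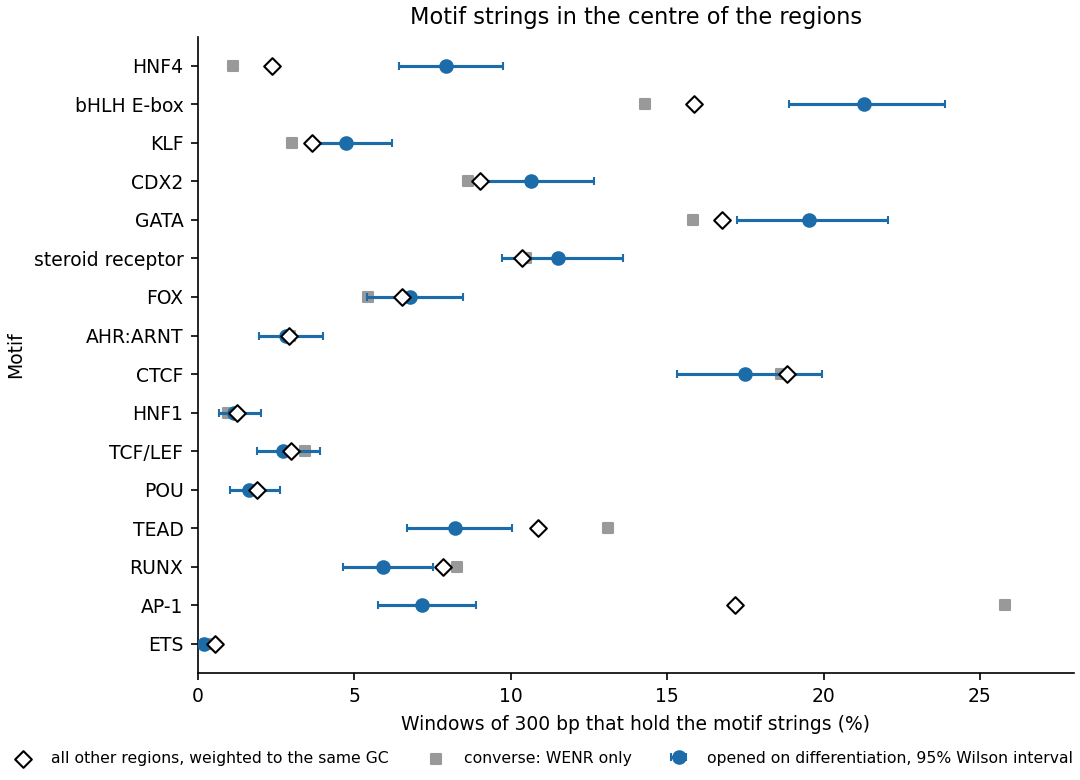
Percent of central 300 bp windows that hold each motif, with blue points and 95% Wilson intervals for opened regions, open diamonds for all other regions weighted to the same GC content and grey squares for the converse set. HNF4 stands at 7.93% against 2.38 and 1.12%, and AP-1 at 7.16% against 17.2 and 25.8%.

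HNF4 matches lay at the middle of the opened regions. Per 1000 regions there were 18.4, 32.9 and 31.9 matches in the 3 bins of 100 bp around the midpoint, and 0.967 to 8.70 in each bin beyond them out to 1000 bp on each side. The converse set had 3.81 at the midpoint and no bin above 4.38. AP-1 matches were 117 per 1000 regions at the midpoint of the converse set. In the opened regions they were 24.2, 18.4 and 33.9 in the same 3 bins and 7.74 to 22.2 beyond them.

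**Figure D4:**
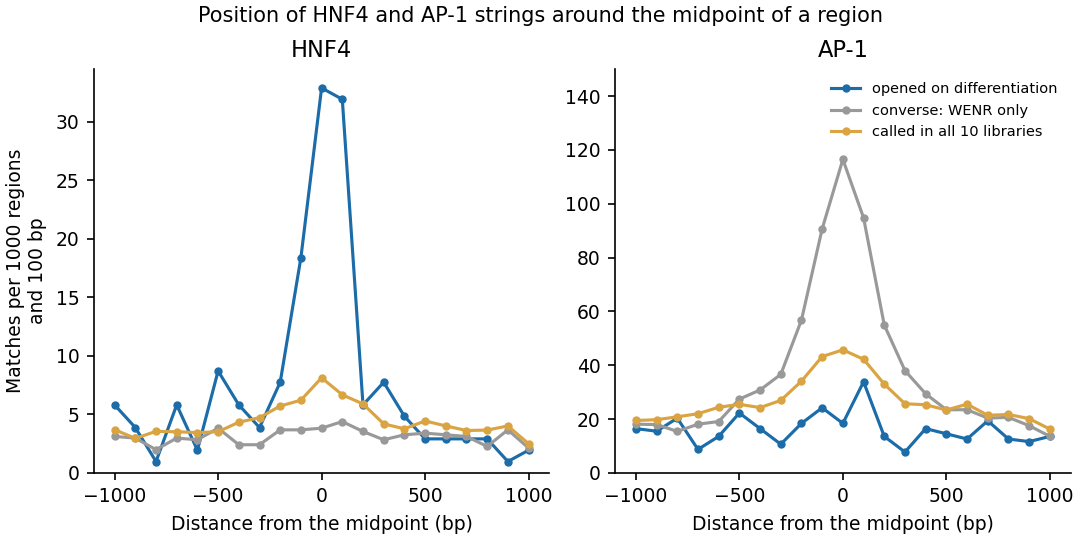
Matches to the HNF4 and AP-1 strings per 1000 regions in bins of 100 bp, by distance from the midpoint in bp, for opened regions (blue), the converse set (grey) and regions called in all 10 libraries (yellow). HNF4 peaks at 32.9 in the opened regions and AP-1 at 117 in the converse set.

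The 82 regions with an HNF4 string resembled the rest in annotation, with 92.7% intronic or intergenic against 90.4%. Their median fold was 3.81 in AHR KO replicate 2 and 3.75 in WT replicate 3, against 3.49 and 3.57 in the regions without the string, and 2.85, 3.47 and 3.10 against 2.77, 3.45 and 3.12 in the other 3 libraries. WT replicate 1 called 23.2% of the regions with HNF4 and 39.7% of those without. Among the 82, 26 also held the E-box (31.7%, against 20.4% of those without HNF4), 13 a TEAD string (15.9% against 7.56%) and 14 a GATA string (17.1% against 19.7%).

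HNF4, AP-1, TEAD, RUNX and E-box strings also differed by medium in regions that the rule did not take, whereas no difference was called for GATA. For each library, all regions with a peak were used except the opened ones and those called in all 10 libraries. The converse set was kept, and by its definition it enters WENR libraries only. Kept too were 1170, 1808 and 6083 regions called in 3, 2 and 1 d4 ENR libraries and in no WENR library. These just missed the rule and enter d4 ENR libraries only. In those called in 1 d4 ENR library, HNF4 strings were in 3.21% and AP-1 strings in 7.0%. The test is therefore not independent of the contrast behind the rule. The regions used numbered 3785 to 27321 in d4 ENR and 32579 to 36667 in WENR libraries. The part of the converse set, of the regions that just missed the rule and of these sizes in the differences was not tested. HNF4 strings were in 2.40 to 2.95% of the regions used in d4 ENR and in 1.61 to 1.85% in WENR libraries. The means were 2.73 ± 0.222% and 1.75 ± 0.0948% (SD, n = 5 each, higher in 5 of 5 d4 ENR libraries, exact permutation within genotypes, p = 0.02, adjusted p = 0.04). AP-1 strings were in 10.1 to 15.4% in d4 ENR and 17.8 to 19.6% in WENR, means 13.6 ± 2.07% and 18.9 ± 0.766% (exact permutation p = 0.02, adjusted p = 0.04). Adjustment was over the 16 motifs, and 0.02 is the smallest p that the 100 arrangements allow.

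TEAD strings were also lower in d4 ENR, at 9.52 ± 0.853% against 11.2 ± 0.413% (adjusted p = 0.04 by the same exact permutation test). E-box strings were higher, at 17.1 ± 0.368% against 16.2 ± 0.154% (adjusted p = 0.04, exact permutation). At the same adjusted p by the exact permutation test, RUNX strings fell by 0.452, TCF/LEF strings fell by 0.215 and CTCF strings fell by 1.07 percentage points, and ETS strings rose by 0.0923, each as the mean of the differences within the genotypes. GATA and CDX2 did not pass, with adjusted p = 0.704 for each in the exact permutation test. The libraries behind each mean share most of their regions, so the 16 tests are not independent of each other.

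Within 100 kb, 866 opened regions were assigned to 765 nearest protein-coding genes, 3.49% of the 21911 annotated, and 699 of these genes had 1 region each. The converse set reached 4274 genes or 19.5%. Of the 765 genes, 241 also had a converse region nearest to them, which is 31.5% of the genes with an opened and 5.64% of those with a converse region. Over the 281 genes of 14 lists of cell types and pathways, 28 had an opened region (9.96%) and 84 a converse one (29.9%). Both exceeded the shares of all genes, so the excess over 3.49% was not limited to the opened regions. Only in the absorptive colonocyte and cell cycle lists did as many genes have an opened as a converse region, and in the other 12 lists fewer did. The lists were chosen with results of these data known, and no test was made of them.

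There were 32 opened regions assigned to these 28 genes, and most are given with their folds in the d4 ENR libraries that called them. In 10 of them every WT value was above every AHR KO value, in 1 every AHR KO value was above, and in 21 the genotypes overlapped. Over all 1034 opened regions the 2 non-overlapping kinds made up 25.6% and 12.1%, and over the 39165 regions called in at least 4 d4 ENR libraries 8% and 13.5%. These sets differ in WT replicate 1, the library with the lowest folds, which had no peak in 637 of the 1034 and in 8935 of the 39165. Among regions called in all 5 libraries, where no value is missing, the kinds made up 12.1% and 9.19% of the 272 opened regions and 3.2% and 12.5% of all 29185. No single region was tested between the genotypes.

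Absorptive colonocyte genes had an opened region in 5 of 30 cases, and a converse one also in 5. *Car1* and *Car4* encode carbonic anhydrases of the colonic surface. The *Car4* region lay 5092 bp from the start, on chromosome 11 from 84952471 to 84952917, with a fold of 3.54 and 4.07 in WT replicates 2 and 3, 3.10 and 3.65 in AHR KO replicates 1 and 2, and no peak in WT replicate 1. Its window held a CDX2 string. The *Car1* region, in an intron of the gene, was called in all 5 libraries, with folds of 2.46, 3.92 and 2.76 in WT and 3.13 and 2.36 in AHR KO. The genotypes overlapped at both genes.

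*Ceacam20*, a brush border adhesion protein, had an intronic region 1396 bp from its start, with folds of 2.63 to 3.34 in 4 libraries. The *Lgals3* region, near the gene of galectin-3, was 20678 bp away and ranged from 2.49 to 4.27 in 5 libraries. *Slc51b*, which encodes the beta subunit of the basolateral bile acid exporter, had the weakest region of the 5, at 1.91 to 2.57. In each of these the WT and AHR KO values overlapped except at *Slc51b*, where the AHR KO libraries, at 2.38 and 1.91, were below the 3 WT libraries, at 2.42 to 2.57.

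Of 26 genes of lipid absorption and oxidation, *Pck1* and *Ehhadh* had an opened region, and 5 had a converse one. *Pck1*, the cytosolic enzyme that commits oxaloacetate to gluconeogenesis and glyceroneogenesis, had a region of 343 bp at 10543 bp from its start. WT replicates 2 and 3 had 3.61 and 3.95 there and AHR KO replicates 2.04 and 2.44, with no peak in WT replicate 1, so the called libraries did not overlap. At *Ehhadh*, a peroxisomal beta-oxidation enzyme, an intronic region was called in all 5 libraries, from 2.94 in WT replicate 1 to 4.39 in WT replicate 3, with AHR KO at 4.03 and 4.34.

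Of 17 goblet cell genes, 3 had an opened and 6 a converse region. *Atoh1*, the bHLH factor that commits cells to the secretory fate, had a region 7451 bp away with folds of 4.32, 3.43, 3.54 and 4.14 in the 4 libraries other than WT replicate 1, and its window held an AP-1 string. *Bcas1* had 2 regions, one of them 40 bp from a start. *Klk1* had 1, of 2.63 to 3.46 in 4 libraries. For enteroendocrine cells 1 of 16 genes had an opened region (*Cck*, a peptide hormone, 53842 bp away) and for tuft cells 1 of 12 (*Sucnr1*, the succinate receptor, 18656 bp away), against 4 converse genes in each list. Over all protein-coding genes the shares were 3.49% and 19.5%, so 1 gene with an opened region does not set lists this short apart.

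No opened region was nearest to any of 17 YAP/TEAD target genes, of which 11 had a converse region (64.7%). Of 20 Wnt target and stem cell genes, 11 (55.0%) had a converse region and 1, *Sp5*, an opened one. Over all protein-coding genes 19.5% had a converse and 3.49% an opened region. At 3.49%, having no gene or 1 gene with an opened region does not set lists of this length apart. *Sp5* encodes a transcription factor induced by Wnt, but its region lay 62152 bp away in an intron of *Myo3b*. That region held an HNF4 string, was called in all 5 libraries, and had 2.65, 3.24 and 3.98 in WT and 4.96 and 4.63 in AHR KO, which did not overlap. *Ly6a*, which encodes the regeneration marker Sca-1, was the one fetal-like gene of 14 with an opened region, 21720 bp away.

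Intestinal transcription factors had 4 opened regions among 21 genes, and 8 converse. *Prdm1*, which encodes Blimp-1, a repressor known from fetal gut, had an intronic region 2306 bp from a start, with folds from 2.81 to 3.13 in 4 libraries. *Nr5a2* (LRH-1) had an intronic region with 2.71, 4.12 and 4.53 in WT and 2.96 in AHR KO replicate 2, with no peak in AHR KO replicate 1. *Tcf7l2*, the main Wnt-responsive TCF of the gut, had an intronic region with an HNF4 string, of 2.28 to 2.78.

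Among 22 nuclear receptor genes, *Thrb* (thyroid hormone receptor beta) and *Pparg* had opened regions. The *Thrb* region, 96064 bp into the gene, was among the stronger ones of the lists, with 4.83 and 5.92 in WT replicates 2 and 3 and 3.46 and 4.28 in AHR KO. The *Pparg* region had 2.84, 3.91 and 4.01 in WT, 3.50 in AHR KO replicate 2 and no peak in AHR KO replicate 1. Of 25 BMP and TGF-beta genes, *Id2*, a target of BMP signalling, had 2 regions at 47883 and 93329 bp and *Bmp7* 1. Of 17 tight junction genes 1 had an opened region and 6 had a converse one.

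Of 25 genes of xenobiotic metabolism and export, 3 had opened regions. *Abcg2*, an apical efflux pump for drugs and urate, had 3 of them between 960 and 34299 bp from a start. The one in an exon of the gene was called in all 5 libraries, with 2.74, 4.27 and 5.48 in WT and 5.55 and 4.23 in AHR KO. The one at 960 bp had 4.28 and 6.87 in WT replicates 2 and 3 and 3.32 and 5.14 in AHR KO, and its central 31 bases occur 7 times. *Sult1b1* and *Sult1d1*, cytosolic sulfotransferases, each had 1, the first 58 bp from a start and called in 5 libraries at 2.70 to 4.13. Of 20 cell cycle genes, *Mki67* and *Cdkn2b* had an opened region, the *Mki67* one with an HNF4 string and with central 31 bases that occur 3 times.

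**Figure D5:**
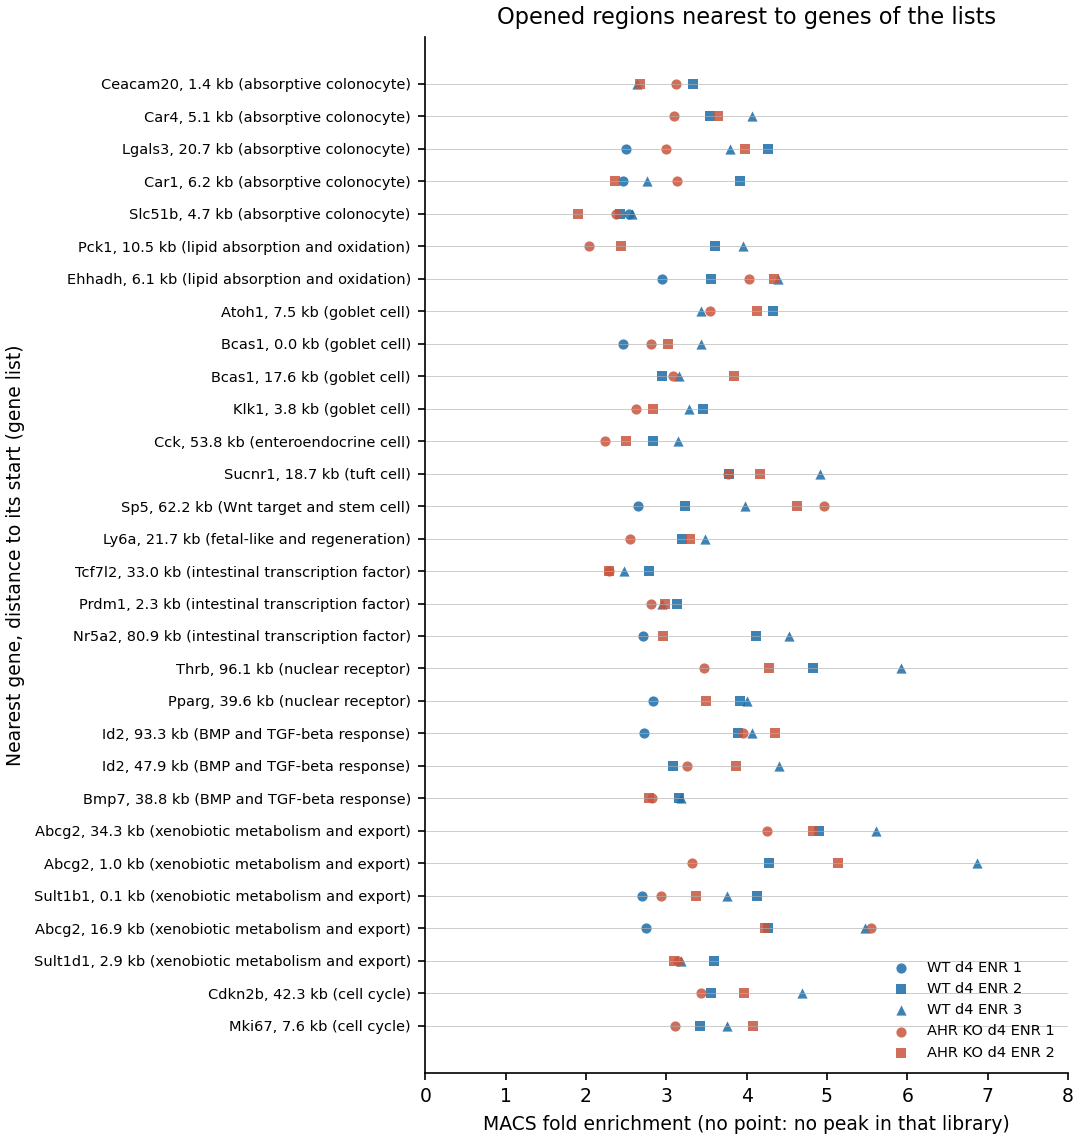
MACS fold enrichment of the opened regions nearest to genes of the lists, in each d4 ENR library (blue WT, red AHR KO, a missing point is no peak), with the distance to the start of the gene. Values run from 1.91 at Slc51b to 6.87 at Abcg2, and the colours overlap in most rows. Of the 32 regions, 2 are not drawn.

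By rank, the strongest opened regions were not near such genes. The top 3 were 230, 237 and 211 bp wide, nearest to *Myl12b*, *Chrm3* and *Rnf219*, and had folds of 17.5 to 30.1 in the libraries that called them. The *Myl12b* region had 23.8, 30.1 and 27.3 in WT and 22.1 and 24.8 in AHR KO. The central 31 bases of these 3 occur 6, 5 and 8 times on the chromosomes searched, and the part of this in their fold was not tested. MACS lists no peak shorter than the mean fragment of a library, which was 235 to 255 bp in WENR and 156 to 221 bp in d4 ENR. A peak as short as those at *Myl12b* and *Rnf219* could therefore not be listed in WENR, and 4 opened regions had no d4 ENR peak of 235 bp or more. One as short as that at *Chrm3* could be listed only in AHR KO WENR replicate 1. No d4 ENR peak of 255 bp or more was found in 8 opened regions. With only peaks of at least 255 bp in every list, 639 regions met the rule.

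The other 9 of the 12 strongest had folds of 3.22 to 10.2, and the central sequence of 7 of them occurs once. The *Cldn34d* region on chromosome X, within a claudin gene, had 6.67, 10.2 and 7.75 in WT and 6.83 and 6.96 in AHR KO. The *Cyp26b1* region, in an intron of *Exoc6b* and 46971 bp from the start of this retinoic acid hydroxylase gene, had 4.49, 5.64 and 5.95 in WT and 6.11 and 6.12 in AHR KO, and here AHR KO lay above WT. The *Prdx6* region, 50517 bp from a peroxiredoxin gene, had 3.29, 6.17 and 7.58 in WT and 6.64 and 6.50 in AHR KO. *Tmem246*, *Gdpd5* and *Atg10* had theirs in introns of the gene itself, at 3.98 to 4.84, 5.10 to 5.62 and 3.40 to 3.84. Regions nearest to *Gm10720* and *Krtap5-3*, whose central 31 bases occur 27 and 3 times, and to *Smim15*, 323293 bp away, completed the 12.

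Most opened regions stood alone. With regions joined where they lay within 50 kb of each other, 848 were single and 186 formed 71 groups. The 2 largest groups, of 21 and 13 regions, were neighbours on chromosome 1. The larger spans bases 85067960 to 85346998 and the other, around *Sp140*, spans bases 85479135 to 85622386. Among these 34 regions, *C130026I21Rik* had 15 regions assigned, *G530012D18Rik* 7 and *Sp140*, a nuclear body protein of immune cells, 5. The central 31 bases of 29 of the 34 occur more than once, and the part of this in their calls was not tested. Over all opened regions this held for 124 or 12%, against 5.18% of all other regions, and for 19.5% of those called in all 5 libraries. *A530032D15Rik*, *Gm10553* and *Gm21119*, with 3 regions each, had such sequence in every one.

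Genes with 3 or more regions of mostly single-copy sequence were few. *Kalrn*, a guanine nucleotide exchange factor, had 5 on chromosome 16 between 34047627 and 34345688, with a mean fold of 3.74 and an HNF4 string in 1. *Galnt10*, a transferase that starts O-glycosylation of mucin-type proteins, had 4 over 39.8 kb of chromosome 11, with a mean fold of 2.95. *Slco2b1*, an uptake transporter of organic anions, *Cdc42bpa* and *Pard3*, a polarity protein, had 3 each, with mean folds of 3.70, 3.70 and 3.34. Of the 14 genes with at least 3 regions, only *Abcg2* is in the lists.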

How the data were processed

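Omni-ATAC-seq peak lists of 10 libraries were used, 1 per library, grouped by the genotype, medium and replicate number in the labels. Reads were processed by the authors with nf-core/atacseq, which aligns with BWA to GRCm38, and broad peaks were called per library by MACS 2.2.7.1 from fragment pairs, with no control sample, at q cutoffs of 0.1 (broad) and 0.05 (narrow). The deposited lists hold, per peak, its coordinates and length, the pileup (a coverage signal, its mean over the peak, unscaled for depth), the fold enrichment (a ratio to background nearby) and the p-values and q values on a −log10 scale, all from the authors' peak caller. Columns of the whole series were not used here, and neither were reads or counts per region.

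Lists were merged with Python 3.11.15, numpy 2.4.6 and pandas 2.3.3, and figures drawn with matplotlib 3.10.9. Peaks on chromosomes 1 to 19, X and Y were merged where they shared at least 1 bp. A region's fold in a library was that of its most significant peak. Midpoints were placed in promoters (from 1 kb before to 100 bp after a start), exons, introns or intergenic sequence, in this order, with GENCODE M21. Motif strings were searched in 300 bp windows, and GC weighting used bins of 5 percentage points. Copies of the central 31 bases were counted on the same chromosomes on both strands. Percentages per library were compared by exact permutation over libraries, 2-sided, taking 2 times the smaller tail. Shares of regions carry 95% Wilson intervals, which cover counting error only. The procedures were tested on simulated lists.

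The regions, the motifs and the gene lists were chosen with earlier results of these data known. Named are the 12 regions of highest mean within-list percentile, up to 12 genes with at least 3 regions, and up to 6 genes per list, of which 2 are not reported here. Alternatives were lists limited to the length of the shortest (33433 peaks), a −log10 q of at least 5, 50% of a region covered, autosomes only, other windows and promoters, a block on replicate number, and leaving out single libraries in turn. The minimum peak length and leaving out repeated sequence or the chromosome 1 groups were added after the data were seen.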

Additional observations from a re-analysis of the deposited data

Results flagged for a closer look

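Among the 5 d4 ENR libraries, WT replicate 1 stood far from the others in the share of opened regions called, at 38.4% against 95 to 98.6%. Of all regions it called 37.8%, and the others 52.5 to 66.0%. Outside the opened regions and those called in all 10 libraries, it also had the lowest shares with AP-1 strings, at 10.1% against 13.9 to 15.4%, with FOX strings, at 5.02% against 6.53 to 6.94%, and with RUNX strings, at 6.55% against 7.41 to 7.75%. For these motif shares the gap to the nearest library, as a part of the range of the 5, passed the 95% critical value of Dixon's test. The gap in opened regions called passed it too, but those calls chose the regions, so it is a description and not a test. All 4 values belong to this library. In all, 45 groups of 5 libraries were examined, and among groups not shaped by the choice of regions chance alone sets apart about 5%. The library has the shortest peak list, and the part of this in its shares was not tested.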

How the results depend on the processing

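The number of opened regions was 1838 with lists shortened to the shortest, 272 with a −log10 q of at least 5 and likewise 272 when all 5 d4 ENR libraries had to call, 669 with 50% of the region covered, 639 with only peaks that every list can hold, and 1069 to 2083 with 1 library left out, highest without WT d4 ENR replicate 1 and at 1593 without AHR KO d4 ENR replicate 1. With 1 WENR library allowed to call it was 1432. The HNF4 share was 6.42% with shortened lists, 11.4% at the stricter q and 11.8% over whole regions, against 2.12%, 2.06% and 5.44% of all other regions. The AP-1 share was 10.1% in 500 bp windows and 13.9% over whole regions, against 20.6% and 32.6%. For TEAD it was 9.57% with 50% of the region covered, near the 9.88% of all other regions. For RUNX it was 6.80% with shortened lists, above the 6.41% of all other regions. Leaving out a library kept HNF4 at 7.16 to 8.01%. Without repeated sequence HNF4 was 8.13% and AP-1 7.69%. Intronic and intergenic regions were 76.0% with promoters of 3 kb on each side. Within gene bodies with 5 kb on each side, 6.05% of the list genes had an opened region.

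The held-out differences were 29.1 to 65.8 points (chosen on WT, lowest without a WT d4 ENR library, when 1 of 2 had to call) and 23.2 to 50.4 (chosen on AHR KO, lowest without WT d4 ENR replicate 3 and highest without replicate 1), and the latter was 18.3 at the stricter q and 22.8 with 50% covered. There the media overlapped (exact permutation p = 0.6 for each), as they did without AHR KO WENR replicate 1 (29.6 points, p = 0.6) or AHR KO d4 ENR replicate 1 (24.8 points, p = 0.4). Width differed by 236 bp with shortened lists, 83.8 bp with 50% covered and 87 to 172.8 bp with 1 library left out, and with 50% covered the libraries overlapped (exact permutation p = 0.4). In strength, AHR KO minus WT turned to −8.35 percentile points at the stricter q, to −0.0502 for the fold relative to regions called in all 10 libraries, and ran from −2.14 to 4.94 with 1 library left out, negative without WT d4 ENR replicate 1 or AHR KO d4 ENR replicate 2. The cause was not tested.

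Outside the opened regions, the media differed by 0.898 to 1.35 points for HNF4 and −5.78 to −4.89 for AP-1 with 1 library left out, where fewer arrangements leave no adjusted p under 0.05. Differences for CDX2 ran from −0.0213 to 0.955 there, for steroid receptor from −0.0183 to 0.183 and for POU from −0.00322 to 0.127. With shortened lists steroid receptor was −0.231, and with 500 bp windows it was −0.104 and POU −0.0212. TEAD, TCF/LEF and CTCF kept their sign with shortened lists but missed the threshold, as E-box did with the minimum peak length. In turn HNF1 passed with shortened lists and 500 bp windows (adjusted p = 0.0457 and 0.0356, exact permutation), AHR:ARNT with shortened lists (−0.324 points, adjusted p = 0.0457) and KLF with the minimum peak length (adjusted p = 0.04).

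Same-numbered libraries of the same genotype did not deviate together (r from −0.107 to 0.0211 over 4 pairs), and those of the 2 genotypes in d4 ENR had r of 0.265 and 0.0882. With the number as a replicate block, HNF4 differed by 0.893 and AP-1 by −5.24 points (adjusted p = 0.222 each by exact sign flips, too few for a call), CDX2 by −0.0881 and POU by −0.00859. The held-out differences under the block were 54.7 and 23.2 points, strength 4.75 percentile points and width 172.5 bp.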
